A study of Mus musculus with 8 samples.

Results

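The genes described are 8 integrin subunits of gut lymphoid cells, namely Itga4, Itgb7, Itgb1, Itgae, Itgal, Itgb2, Itgav and Itgb3, picked by gene symbol from the 27179 genes of the table. The table writes these symbols in capitals, so they were matched without regard to case and checked by Entrez Gene identifier, and all 8 were found. RNA came from sorted lymphoid tissue inducer (LTi) cells, a kind of innate lymphocyte that helps lymph nodes and Peyer's patches to form. The tissues were small intestinal lamina propria (LP), the connective tissue under the epithelium, and Peyer's patches (PP), the lymphoid follicles of the gut wall. Each tissue was taken from C57BL/6 mice labelled Tcf7fl/fl with a Cre transgene (titled Tcf7-KO) and from Tcf7+/+ mice (titled Ctrl), with 2 libraries in each of the 4 groups. In the first genotype, Cre is active in the lymphoid cells that express the transgene and not in the whole mouse, and is meant to delete Tcf7, which encodes the transcription factor TCF-1. The sources used here give neither age nor sex of the mice. All groups used 1 gate, negative for lineage markers, KLRG1, NK1.1 and NKp46 and positive for CD127 and CCR6. The labels do not say whether the 2 libraries of a group came from separate mice, so p-values reflect the spread among these libraries alone, which may be technical.

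Integrins are adhesion receptors of the cell surface, each built of 1 alpha and 1 beta chain. A beta chain can pair with several alpha chains, and the pair sets which ligand is bound. On gut lymphocytes, the alpha4 chain with beta7 binds the vessel addressin MAdCAM-1, alpha4 with beta1 binds VCAM-1, alphaE with beta7 binds E-cadherin on epithelium, alphaL with beta2 (LFA-1) binds ICAM proteins, and alphaV with beta3 or beta1 binds matrix proteins. Signals inside the cell switch integrins to the binding form through talin, kindlin and the small GTPase Rap1. In LTi cells, integrins are known for holding the cells to stromal cells where lymphoid organs form.

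The targeted gene itself did not pass as lower in the libraries labelled Tcf7-KO, with log2 fold changes of -0.07 in LP and 1.26 in PP. Tcf7 stood at 237 and 215 RPKM (reads per kilobase of transcript, scaled to library size) in LP labelled Tcf7-KO, against 229 and 246 RPKM in Ctrl LP, and at 355.5 and 337 RPKM in PP labelled Tcf7-KO, against 243 and 85.4 RPKM in Ctrl PP. A value per gene cannot show whether some of its exons are missing, so genotype rests on the labels throughout. Of the genes that mark LTi cells, Il7r (CD127) ranged from 206 to 385 RPKM in LP and 251 to 454 RPKM in PP, Ccr6 from 89.3 to 325 RPKM in LP and 319.6 to 597 RPKM in PP, and Kit from 118 to 253 RPKM in LP and 99.9 to 212 RPKM in PP. Of the 3 genes of surface proteins gated out, Ncr1 was at 0 in all 8 libraries, while Klrb1c reached 32.8 RPKM in Ctrl PP replicate 1 and Klrg1 10.7 RPKM in Ctrl LP replicate 1. The share of summed RPKM from mitochondrial genes was 13.4 and 13.6% in PP labelled Tcf7-KO and 3.06 to 5.06% in the other 6 libraries. Genes listed as markers of other cells were seen, which alone does not show that those cells were present. A level of 1 RPKM was reached somewhere by 13 of 14 T cell, 12 of 13 B and plasma cell and 15 of 15 epithelial markers. So it was by 6 of 14 myeloid and dendritic, 7 of 11 ILC1 and NK cell and 5 of 8 ILC2 markers. Among stromal and endothelial markers 3 of 13 reached it, and among platelet markers 2 of 10. Depth, estimated from the value of 1 read, was 36.9 to 43.9 M reads per library. Fewer genes reached 1 RPKM in the Ctrl PP libraries, 6411 and 6365, than in the other 6 libraries, 7437 to 8433. The part of this in the comparisons with Ctrl PP was not tested.

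Levels in RPKM are per length, so comparisons between genes rest on the gene lengths the submitters used. Itgb7 was the highest of the 8 members in every library, and Itgae was the lowest in 7 of 8. Over the 8 libraries the mean levels were 215 RPKM for Itgb7, 77.0 for Itgb2, 45.2 for Itgal, 33.9 for Itgav, 27.2 for Itgb3, 15.4 for Itgb1, 11.4 for Itga4 and 0.668 for Itgae. Neighbours in the middle of this order overlapped: Itgb2 ranged from 17.8 to 212 RPKM, Itgal from 16.6 to 78.6 and Itgav from 0.227 to 69.7. The rank of Itgav depended on the tissue, being 2 in all 4 LP libraries and 5 to 7 in the PP libraries. Of the 8 members, 7 passed the filter on low values (at least 1 RPKM in at least 2 libraries) and entered the test, while Itgae did not.

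**Figure D1:**
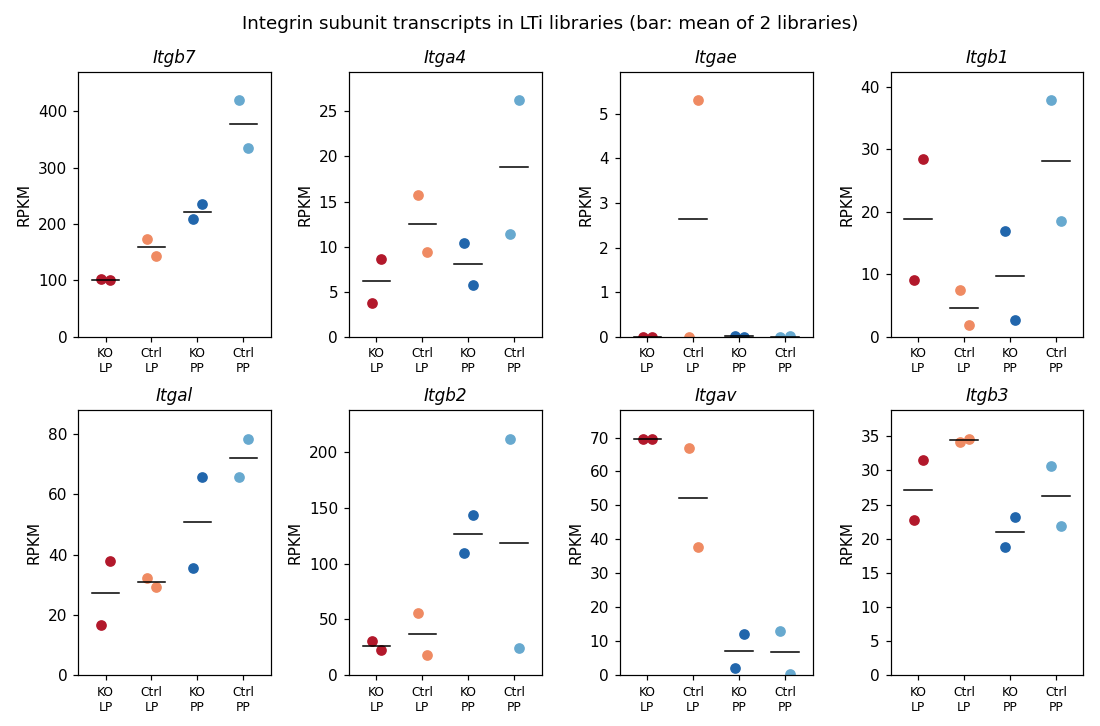
Level of each integrin subunit in RPKM (linear axes from 0) in the 8 libraries, grouped as LP labelled Tcf7-KO, Ctrl LP, PP labelled Tcf7-KO and Ctrl PP, with a point per library and a bar at the mean of 2. Itgb7 lies at 100.3 to 174 RPKM in LP and 209 to 419.9 RPKM in PP, and Itgav at 37.8 to 69.7 RPKM in LP and 0.227 to 13.1 RPKM in PP.

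The test was limma on log2(RPKM + 1) over the 10541 genes kept, and passing means a Benjamini-Hochberg adjusted p under 0.05. Differences are given as labelled Tcf7-KO minus Ctrl and as LP minus PP, and errors of log2 fold changes are standard errors. For Itgb7, Itgav and Itga4, the member that passed a test, the one nearest to passing and the main alpha partner of beta7, the 250 bases before 1 annotated transcript start are shown from the RefSeq promoter table on GRCm38.p6, which held such a window for 4 of the 8 members. A transcript of GENCODE M21 begins at each of these 3 starts. For Itga4 the start is also the outer limit of the gene, while for Itgb7 and Itgav it lies 1470 and 2094 bases inside the outer limits that RefSeq gives, so sequence before other starts of these genes was not searched. The windows are printed 5′ to 3′ on the gene's strand. Capitals mark matches on either strand to 3 motifs. The RUNX motif was searched as TGTGGT and with the letters TGCGGT, and the GC box as GGGCGG. The TCF/LEF motif was searched as CTTTGAA and with the letters CTTTGAT, and further with CTTTGTA and with the letters CTTTGTT.
Itgb7, chr15:102231936-102232185, minus strand: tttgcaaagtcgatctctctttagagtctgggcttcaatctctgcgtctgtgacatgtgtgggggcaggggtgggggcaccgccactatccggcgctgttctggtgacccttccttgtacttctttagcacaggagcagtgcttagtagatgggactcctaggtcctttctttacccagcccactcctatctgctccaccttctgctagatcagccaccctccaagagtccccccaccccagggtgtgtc
Itga4, chr2:79255176-79255425, plus strand: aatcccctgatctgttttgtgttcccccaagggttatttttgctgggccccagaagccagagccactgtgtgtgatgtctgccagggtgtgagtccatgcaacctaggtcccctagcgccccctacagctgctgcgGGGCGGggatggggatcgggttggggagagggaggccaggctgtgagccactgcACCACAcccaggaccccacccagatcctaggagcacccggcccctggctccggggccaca
Itgav, chr2:83724147-83724396, plus strand: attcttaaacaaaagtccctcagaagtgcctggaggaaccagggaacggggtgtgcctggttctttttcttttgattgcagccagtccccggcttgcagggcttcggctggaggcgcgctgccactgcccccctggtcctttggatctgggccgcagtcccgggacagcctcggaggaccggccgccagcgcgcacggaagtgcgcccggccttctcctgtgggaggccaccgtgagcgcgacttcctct
The Itga4 window held 1 RUNX match, at bases -60 to -55 from that start, and 1 GC box, at -114 to -109. The Itgb7 and Itgav windows held no match to any of the 3 motifs. Among 32851 promoter windows of this length, 14.8% held the TCF/LEF motif, 18.6% the RUNX motif and 32.7% the GC box. The marked motifs do not overlap each other. A missing match says only that these letters are not in the window shown.

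Itgb7 encodes beta7, the partner of alpha4 and alphaE (Entrez Gene 16421, chr15:102215994-102233405 on GRCm38.p6), and was lower in LP than in PP. It stood at 103 and 100.3 RPKM in LP labelled Tcf7-KO, 174 and 143 in Ctrl LP, 209 and 235 in PP labelled Tcf7-KO, and 419.9 and 335 in Ctrl PP. Every LP library was below every PP library, a pattern that 7.05% of all genes tested shared, but the tissues overlapped after median-of-ratios rescaling. The means were 130.3 ± 35.4 RPKM in LP and 299.8 ± 96.8 RPKM in PP (SD, n = 4 each). The average tissue effect was -1.18 ± 0.25 on the log2 scale, with a limma adjusted p of 0.0279. Itgb7 was the only one of the 7 members tested that passed in this comparison, in which 4.33% of all genes passed and 2.03% passed as lower. By genotype, the tissue effect was -1.12 ± 0.30 in libraries labelled Tcf7-KO (limma adjusted p = 0.139) and -1.24 ± 0.30 in Ctrl (limma adjusted p = 0.0972). Neither passed, and no other member passed in these comparisons, where 2 and 2.13% of all genes did. The average effect treats the 8 libraries as unrelated, an assumption that fails if 1 mouse gave both LP and PP cells. Its adjusted p was 0.0646 and 0.0778 without PP replicates 1 and 2 labelled Tcf7-KO, 0.0602 without Ctrl PP replicate 1, 0.0695 and 0.094 without Ctrl LP replicates 1 and 2, 0.105 after median-of-ratios rescaling and 0.238 without a trend of the spread, so the call was lost there with a fold change of -1.23 to -1.10.

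Sums of genes listed as markers of other cells moved with tissue too, and T and B cells also express Itgb7. The T cell list summed to 348 to 644 RPKM in LP and 937 to 1213 RPKM in PP. Most of it came from Trbc2, Cd4, Lat and Trbc1, so the sum does not tell T cells from LTi cells that express these genes. Cd3e ranged from 0.179 to 56.3 RPKM over the 8 libraries. Cd3g varied widely among replicates, at 0.326 and 111 RPKM in Ctrl PP, and Cd247 reached at most 0.593 RPKM. The B and plasma cell list was higher in LP, with 15663 to 25370 RPKM against 5237 to 12380 RPKM in PP. Most of that came from Igkc, while the B cell factor Pax5 was at 0 in every library. Their part in the difference of Itgb7 was not tested. In bulk samples, fewer cells of a type and less RNA per cell cannot be told apart.

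Itgb7 was also lower in the libraries labelled Tcf7-KO of each tissue, by the values above: 103 and 100.3 RPKM against 174 and 143 in LP, and 209 and 235 RPKM against 419.9 and 335 in PP. The groups did not overlap in either tissue, and the difference did not pass. None of the 7 members passed by genotype, while 0.0285% of all genes passed in LP, 0.36% in PP and 0.00949% on average. At an unadjusted p under 0.05, limma called 0 members in LP, 1 in PP and 1 on average, against 5.27%, 11.4% and 6.81% of all genes. Its log2 fold change was -0.63 ± 0.30 in LP (limma adjusted p = 1), -0.76 ± 0.30 in PP (limma adjusted p = 0.402) and -0.69 ± 0.25 on average (limma adjusted p = 0.709). These genotype values of Itgb7 were chosen for the text after they were seen. The 2 genotype effects differed by 0.12 ± 0.43 on the log2 scale, LP minus PP (limma adjusted p = 0.977), with a sign that changed under 3 of 16 alternatives. The PP value moved to -1.33 after median-of-ratios rescaling (adjusted p = 0.137), and it ranged from -0.92 to -0.59 when single libraries were left out. In PP, other values moved with the label: epithelial markers summed to 638 and 693 RPKM in libraries labelled Tcf7-KO, against 337 and 191 RPKM in Ctrl, and B and plasma cell markers to 5658 and 5237 RPKM, against 12380.0 and 12246 RPKM. These and the mitochondrial share were not tested for their part in the difference.

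Itga4 encodes alpha4, the partner of beta7 and beta1 (Entrez Gene 16401, chromosome 2), and stood far below Itgb7. It had 3.73 and 8.63 RPKM in LP labelled Tcf7-KO, 15.7 and 9.37 in Ctrl LP, 10.4 and 5.79 in PP labelled Tcf7-KO, and 11.5 and 26.2 in Ctrl PP. In each tissue both libraries labelled Tcf7-KO were below both Ctrl libraries, by a narrow gap in each (8.63 against 9.37 RPKM in LP and 10.4 against 11.5 in PP). The log2 fold change was -1.07 ± 0.97 in PP (limma adjusted p = 0.714). In LP it was -0.96 ± 0.97 (limma adjusted p = 1), and the average was -1.01 ± 0.78 (limma adjusted p = 0.814), both given after their values were seen. The LP value was -0.45 without LP replicate 1 labelled Tcf7-KO, -1.48 without LP replicate 2 labelled Tcf7-KO and -0.62 without Ctrl LP replicate 1. The PP value was -0.50 without Ctrl PP replicate 2 and -1.63 without Ctrl PP replicate 1. In LP, 3 of the 7 members tested (Itgb7, Itga4 and Itgb3) were lower without overlap and 2 (Itgb1 and Itgav) higher, against 20.3% and 15.3% of all genes. In PP, 3 (Itgb7, Itga4 and Itgb1) were lower without overlap and 0 higher, against 14.8% and 22.7% of all genes. After median-of-ratios rescaling the PP count was 5, with Itgal and Itgb3 added, where 25.6% of all genes were lower without overlap and 15.3% higher. Itgb7 and Itga4 were lower without overlap in both tissues, as were 3.42% of all genes. Between tissues Itga4 overlapped, at 3.73 to 15.7 RPKM in LP and 5.79 to 26.2 RPKM in PP.

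Itgae encodes alphaE (CD103), the partner of beta7 that binds E-cadherin (Entrez Gene 16407, chromosome 11), and was nearly absent. It stood at 5.31 RPKM in Ctrl LP replicate 2. In the other Ctrl LP library and in 1 library of each PP group it was at 0, and the 4 remaining libraries held 0.00526 to 0.0170 RPKM. A single library therefore carried its signal, and no fold change is given.

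Ratios of alpha to beta transcript were set out per library. As the log2 ratio of RPKM + 1, Itga4 to Itgb7 lay between -4.46 and -3.39 in LP and between -5.12 and -3.63 in PP, so Itgb7 exceeded Itga4 in every library. Itgae to Itgb7 lay between -7.45 and -4.52 in LP and -8.72 and -7.69 in PP. For Itga4 to Itgb1, the ratio was above 0 in 4 of 8 libraries, with a range of -1.61 to 1.88 in LP and -1.64 to 0.89 in PP. In LP this ratio was below 0 in both libraries labelled Tcf7-KO, at -1.10 and -1.61, and above 0 in both Ctrl libraries, at 0.96 and 1.88. Itgav to Itgb3 lay between 0.12 and 1.57 in LP and between -4.22 and -0.89 in PP, without overlap, and Itgav to Itgb1 between 1.26 and 3.79 in LP and between -4.00 and 1.83 in PP. Itgal to Itgb2 ranged from -0.83 to 0.74 in LP and from -1.67 to 1.64 in PP. The ratios describe transcripts, not receptors, rest on the gene lengths used and were not tested.

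**Figure D2:**
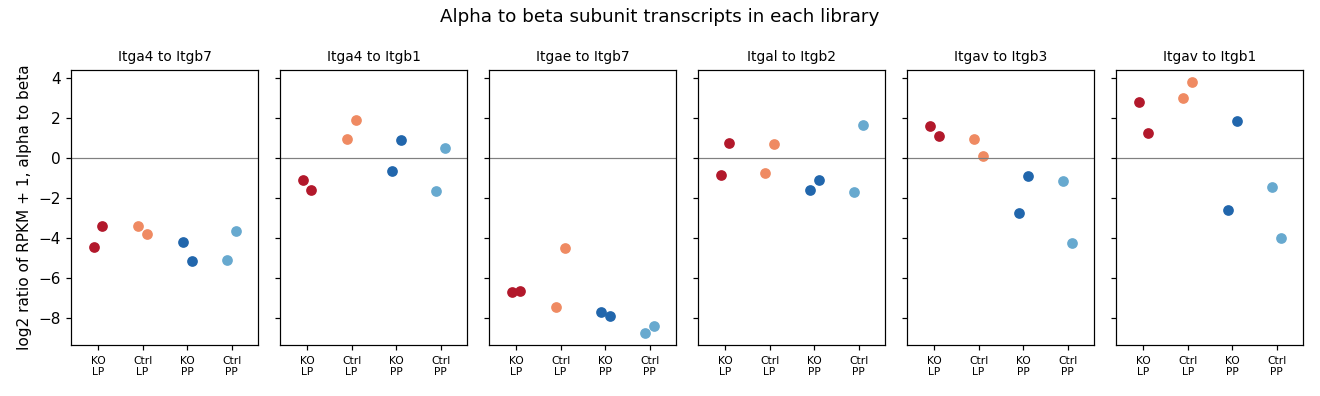
Log2 ratio of RPKM + 1 of an alpha to a beta subunit in each library for 6 known pairs, with a point per library and a line at equal levels. Itgav to Itgb3 lies above 0 in LP (0.12 to 1.57) and below 0 in PP (-4.22 to -0.89), while Itga4 to Itgb7 lies below -3 in all libraries.

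Itgav encodes alphaV, the chain of the vitronectin receptors (Entrez Gene 16410, chr2:83722303-83806917), and was higher in LP in each library. It stood at 69.6 and 69.7 RPKM in LP labelled Tcf7-KO and 66.8 and 37.8 in Ctrl LP, against 1.96 and 12.04 RPKM in PP labelled Tcf7-KO and 13.1 and 0.227 in Ctrl PP. All LP libraries lay above all PP libraries, as for 6.54% of all genes, and the replicates differed 6.14-fold and 57.7-fold within the PP groups labelled Tcf7-KO and Ctrl, against 1.002-fold and 1.77-fold in LP. The average tissue effect of 3.57 ± 0.89 did not pass by a small margin (limma adjusted p = 0.0511). It was 3.51 ± 1.32 in libraries labelled Tcf7-KO (limma adjusted p = 0.275) and 3.63 ± 1.32 in Ctrl (limma adjusted p = 0.226). These rested on single PP libraries: in libraries labelled Tcf7-KO the value was 2.44 without PP replicate 1 and 4.58 without PP replicate 2, and in Ctrl 5.39 without PP replicate 1 and 1.86 without PP replicate 2, none of which passed. The average effect passed under 4 of 16 alternatives: with a pseudocount of 5 (limma adjusted p = 0.0253), with a filter on the mean (0.0484), with libraries rescaled by a total that leaves out immunoglobulin and mitochondrial genes (0.0465) and without Ctrl PP replicate 1 (0.0223). The fold change was between 2.64 and 4.26 over all 16 alternatives, and the adjusted p reached 0.161. The low Ctrl PP value corresponds to about 70.1 estimated reads, and whether these reads came from the cells of that library was not tested. By genotype, the log2 fold changes of Itgav were 0.46 in LP and 0.58 in PP and did not pass.

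ILC2 markers moved with tissue beside Itgav, at 118 to 216 RPKM summed in LP and 0.559 to 23.3 RPKM in PP, chiefly through Areg, while Il5 and Il13 were at 0 in all libraries. ILC1 and NK cell markers summed to 64.4 to 148 RPKM in LP and 0.909 to 75.4 RPKM in PP, with Ncr1 and Eomes at 0. Myeloid and dendritic markers summed to 43.2 to 118 RPKM in LP and 0.961 to 104 RPKM in PP, with Flt3, S100a8, S100a9 and Mpo at 0. In LP the sum came chiefly from Zbtb46, at 17.6 to 51.4 RPKM, and Cd14, at 0.0512 to 90.5 RPKM. Stromal and endothelial markers were lower in LP, at 28.1 to 64.5 RPKM against 78.5 to 205 RPKM in PP, with Cdh5, Kdr, Pdgfra and Col1a1 at 0. Such sums do not show that these cells were present, and the part of such cells in the level of Itgav was not tested.

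Itgb3 encodes beta3, a partner of alphaV and of the platelet chain alphaIIb (Entrez Gene 16416, chromosome 11), and was the steadiest member. It stood at 22.7 and 31.5 RPKM in LP labelled Tcf7-KO, 34.2 and 34.7 in Ctrl LP, 18.8 and 23.1 in PP labelled Tcf7-KO, and 30.7 and 21.9 in Ctrl PP. Its highest value was 1.84 times its lowest, against 4.19 times for Itgb7 and 308 times for Itgav. No comparison passed, and its log2 fold changes lay between -0.35 and 0.40. The platelet list summed to at most 0.0298 RPKM in 7 libraries and to 24.5 RPKM in LP replicate 2 labelled Tcf7-KO. In that library Itga2b, the platelet partner of beta3, stood at 11.1 RPKM and Pf4 at 13.4 RPKM.

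Itgb1 encodes beta1, the partner of alpha4, alpha5 and many other chains (Entrez Gene 16412, chromosome 8), and its replicates spread widely. It stood at 9.16 and 28.5 RPKM in LP labelled Tcf7-KO, against 7.56 and 1.81 in Ctrl LP, and at 16.9 and 2.67 RPKM in PP labelled Tcf7-KO, against 37.9 and 18.6 in Ctrl PP. The libraries labelled Tcf7-KO were thus above Ctrl in LP and below Ctrl in PP, without overlap in either tissue. The log2 fold change was 1.82 ± 1.21 in LP (limma adjusted p = 1) and -1.76 ± 1.21 in PP (limma adjusted p = 0.693), and their difference of 3.58 ± 1.71 did not pass (limma adjusted p = 0.636). Of all genes tested, 6.34% likewise did not overlap in either tissue with opposite directions, and 0.0285% passed the test of that difference, with 8.75% at an unadjusted p under 0.05, where 0 members were. In Ctrl libraries Itgb1 was lower in LP than in PP, at -2.49 ± 1.21 (limma adjusted p = 0.370). The tissue value was -1.69 without Ctrl LP replicate 2 and -3.29 without Ctrl LP replicate 1. The genotype value in LP was 1.05 without LP replicate 2 labelled Tcf7-KO and 1.02 without Ctrl LP replicate 2, and at most 2.62 without other single libraries. The genotype value in PP was -0.62 without PP replicate 2 labelled Tcf7-KO and -2.91 without PP replicate 1 labelled Tcf7-KO.

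Itgal encodes alphaL (Entrez Gene 16408, chromosome 7) and Itgb2 encodes beta2 (Entrez Gene 16414, chromosome 10), the chains of LFA-1. Itgal stood at 16.6 and 37.9 RPKM in LP labelled Tcf7-KO, 32.2 and 29.3 in Ctrl LP, 35.7 and 65.9 in PP labelled Tcf7-KO, and 65.8 and 78.6 in Ctrl PP. LP and PP overlapped in a single pair of values, 37.9 RPKM in LP and 35.7 RPKM in PP. Among Ctrl libraries the LP values were lower without overlap, as for Itgb7 and Itgb1, 3 of the 7 members against 21.4% of all genes. Itgav and Itgb3 were higher without overlap, against 26% of all genes, and Itgb3 overlapped after median-of-ratios rescaling. For Itgal the log2 fold change of -1.20 ± 0.64 did not pass (limma adjusted p = 0.421).

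Itgb2 stood at 30.1 and 22.4 RPKM in LP labelled Tcf7-KO, 55.5 and 17.8 in Ctrl LP, 109.5 and 144 in PP labelled Tcf7-KO, and 212 and 24.5 in Ctrl PP. The 2 Ctrl PP libraries differed from each other 8.68-fold, and the lower of them lay within the range of LP. In libraries labelled Tcf7-KO the LP values were lower without overlap, as for Itgb7, 2 of the 7 members against 28.1% of all genes, and Itgav alone was higher without overlap, against 17.5%, joined by Itgb3 under either rescaling. Itgb2 had there a log2 fold change of -2.23 ± 1.04 that did not pass (limma adjusted p = 0.396). By genotype, neither LFA-1 gene separated the groups in either tissue as deposited. After median-of-ratios rescaling Itgal was lower without overlap in PP labelled Tcf7-KO, at -1.12 on the log2 scale, against -0.56 as deposited, and did not pass.

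**Figure D3:**
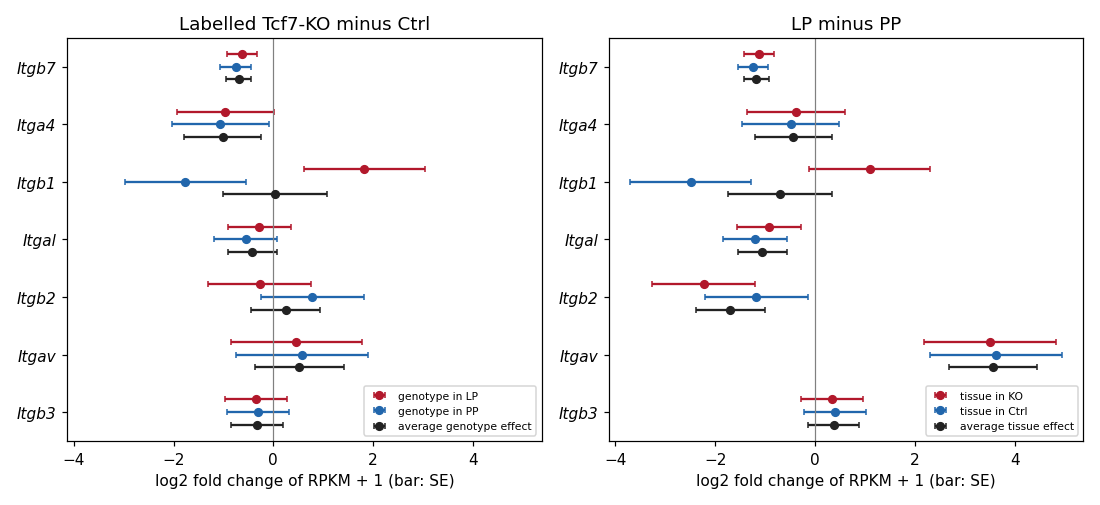
Log2 fold changes (points) with standard errors (bars) of the 7 members tested, for labelled Tcf7-KO minus Ctrl on the left and LP minus PP on the right, within each group and on average. The average tissue effect was -1.18 for Itgb7, the only one that passed, and 3.57 for Itgav, while Itgb1 by genotype was 1.82 in LP and -1.76 in PP.

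Over the 7 members, the median log2 fold change of the average tissue effect was -0.70, against -0.10 over all genes, with 2 above and 5 below 0. For the average genotype effect it was -0.33, against 0.09 over all genes, with 3 above and 4 below 0, or 2 above and 5 below after median-of-ratios rescaling. At an unadjusted p under 0.05, limma called 3 members for the average tissue effect (Itgb7, Itgav and Itgb2), where 19.4% of all genes were called. Within genotype they were 2 in libraries labelled Tcf7-KO and 2 in Ctrl (Itgb7 and Itgav in each), against 14.7% and 17% of all genes. The remaining fold changes not given singly lay between -1.70 and 1.09 and did not pass.

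The other integrin subunits were mostly silent. Of 14 other alpha genes, 6 were at 0 in all libraries and 2 were kept for the test, and of 6 other beta genes 2 were kept. None passed in any comparison. Itga5, which encodes the fibronectin receptor chain alpha5, was the highest of them. It stood at 15.8 and 0.233 RPKM in LP labelled Tcf7-KO, 0.244 and 10.4 in Ctrl LP, 78.7 and 48.1 in PP labelled Tcf7-KO, and 27.4 and 64.7 in Ctrl PP. Every LP value was below every PP value, as for 7.05% of all genes. The average tissue effect of -3.65 ± 1.03, added after it was seen, did not pass (limma adjusted p = 0.0792).

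Several of the other subunits were seen in some libraries only. Itgb5, a partner of alphaV, stood at 15.7 and 7.89 RPKM in LP labelled Tcf7-KO, 0.0397 and 0.117 in Ctrl LP, 6.12 and 14.1 in PP labelled Tcf7-KO, and 15.4 and 0.0549 in Ctrl PP. Itgb4, the partner of alpha6 in epithelium, stood at 5.31 and 0.0330 RPKM in LP labelled Tcf7-KO, 0.0422 and 4.09 in Ctrl LP, 15.8 and 6.08 in PP labelled Tcf7-KO, and 0.0375 and 0.0256 in Ctrl PP. Itga3 reached 9.99 RPKM and Itgb2l 1.60 RPKM in LP replicate 1 labelled Tcf7-KO, and neither exceeded 0.457 RPKM elsewhere. Each of these therefore had replicates of 1 group on both sides of 1 RPKM. Itga6, which encodes alpha6, a laminin receptor chain, was named after its values were seen. It stood at 0.0114 and 0.0182 RPKM in LP labelled Tcf7-KO, 5.43 and 4.65 in Ctrl LP, 0.0370 and 0.0237 in PP labelled Tcf7-KO, and 0.00617 and 0.0108 in Ctrl PP. Ctrl LP thus stood above the other 3 groups, where the highest value was 0.0370 RPKM. The log2 fold change by genotype in LP was -2.57 ± 0.54 (limma adjusted p = 0.329) and by tissue in Ctrl 2.58 ± 0.54 (limma adjusted p = 0.0691), and neither passed.

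**Figure D4:**
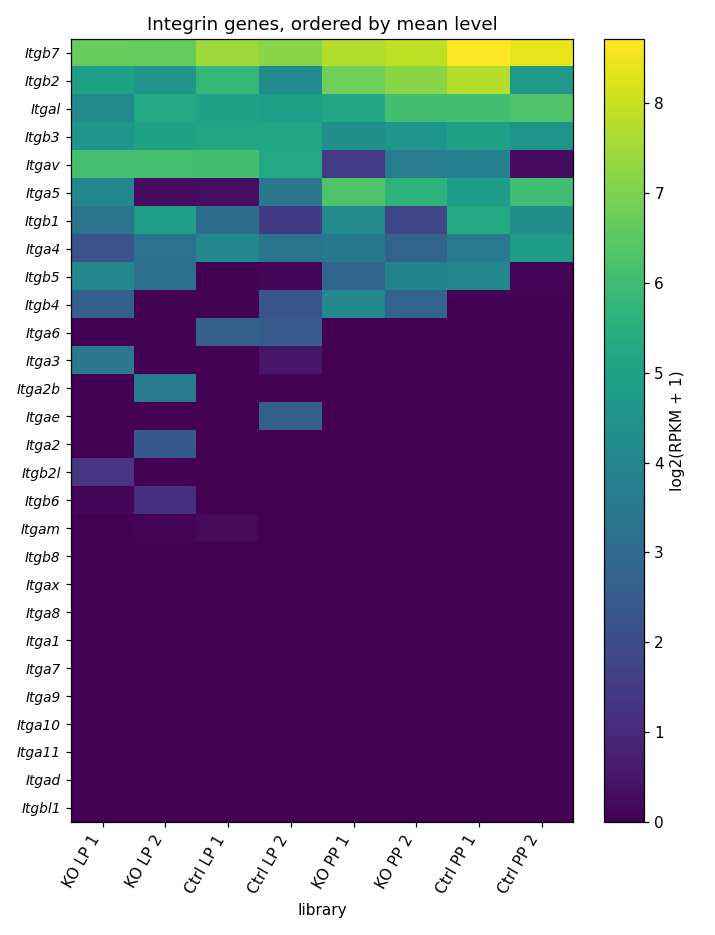
Level of all integrin subunit genes as log2(RPKM + 1), coloured by the scale at the right, with genes ordered by mean level and the 8 libraries as columns. Itgb7 is bright in every library, Itgav is brighter in every LP library than in every PP library, and Itgae is visible in Ctrl LP replicate 2 only, at 5.31 RPKM.

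Of 19 genes of integrin ligands, 8 were at 0 in all libraries, Madcam1 and Vcam1 among them, and 7 were kept. None passed. Icam1, a ligand of LFA-1, stood at 284 and 329 RPKM in LP labelled Tcf7-KO, 186 and 239 in Ctrl LP, 108 and 157 in PP labelled Tcf7-KO, and 163 and 166 in Ctrl PP. All LP values were above all PP values, as for 6.54% of all genes. The average tissue effect of 0.79 ± 0.30, added after it was seen, did not pass (limma adjusted p = 0.177). Icam2, another LFA-1 ligand, overlapped between tissues, at 133 to 273 RPKM in LP and 97.0 to 249 RPKM in PP. Spp1, which encodes osteopontin, a ligand of alphaV integrins, stood at 28.8 RPKM in PP replicate 2 labelled Tcf7-KO and at most 0.231 RPKM elsewhere.

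Genes that switch integrins on from inside the cell and genes of adhesion signalling were more widely expressed, with 19 of 21 and 21 of 23 kept. Over these and the subunit and ligand lists, 51 of 83 genes were tested. For the average tissue effect 1 passed as higher and 2 as lower, against 2.3% and 2.03% of all genes. For tissue within each genotype 0 passed as higher and 1 as lower. Of all genes, 2% passed there in either direction in libraries labelled Tcf7-KO and 2.13% in Ctrl. By genotype and for the difference of genotype effects, limma passed 0, with 6 genes at an unadjusted p under 0.05 in LP, 4 in PP, 2 on average and 8 for the difference of the 51 tested, against 5.27%, 11.4%, 6.81% and 8.75% of all genes.

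Cd81, which encodes a tetraspanin that associates with integrins, fell in LP. It stood at 331 and 385 RPKM in LP labelled Tcf7-KO, 198.3 and 198.3 in Ctrl LP, 974 and 928 in PP labelled Tcf7-KO, and 866 and 656 in Ctrl PP. The tissue effect was -1.67 ± 0.20 on average (limma adjusted p = 0.00132), -1.41 ± 0.23 in libraries labelled Tcf7-KO (limma adjusted p = 0.0375) and -1.92 ± 0.23 in Ctrl (limma adjusted p = 0.0118). The average call was lost without a trend of the spread (limma adjusted p = 0.135). The call in libraries labelled Tcf7-KO held in 6 of 17 alternatives and that in Ctrl in 13 of 17. In libraries labelled Tcf7-KO the limma adjusted p was between 0.0904 and 0.217 without any 1 of their 4 libraries or either Ctrl LP replicate, and 0.0825 with the replicate number as a block. In Ctrl it was 0.143 and 0.137 without LP replicates 1 and 2.

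Sipa1 encodes a GTPase-activating protein that turns Rap1 off, and Cytip a protein that binds the integrin regulator cytohesin-1. Sipa1 fell in LP, with 3.06 and 0.625 RPKM in LP labelled Tcf7-KO, 27.3 and 3.26 in Ctrl LP, 87.2 and 73.7 in PP labelled Tcf7-KO, and 112 and 101 in Ctrl PP. Its average tissue effect was -4.14 ± 0.77 (limma adjusted p = 0.0136). It passed in 12 of 16 alternatives, not without either PP replicate labelled Tcf7-KO (0.0593 and 0.0581), without Ctrl LP replicate 2 (0.0518) or with no filter (0.0557). Cytip rose in LP, with 84.3 and 172 RPKM in LP labelled Tcf7-KO, 152 and 117 in Ctrl LP, 24.7 and 52.4 in PP labelled Tcf7-KO, and 31.9 and 29.2 in Ctrl PP. Its average tissue effect was 1.90 ± 0.44 (limma adjusted p = 0.0357), and it passed in 7 of 16 alternatives. The calls of Cytip lost without single libraries were those without PP replicate 1 labelled Tcf7-KO (0.0973), either Ctrl PP replicate (0.0557 and 0.059), LP replicate 2 labelled Tcf7-KO (0.102) and either Ctrl LP replicate (0.126 and 0.104). All 3 genes are also expressed by T and B cells, whose summed markers are given above and whose part was not tested.

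**Figure D5:**
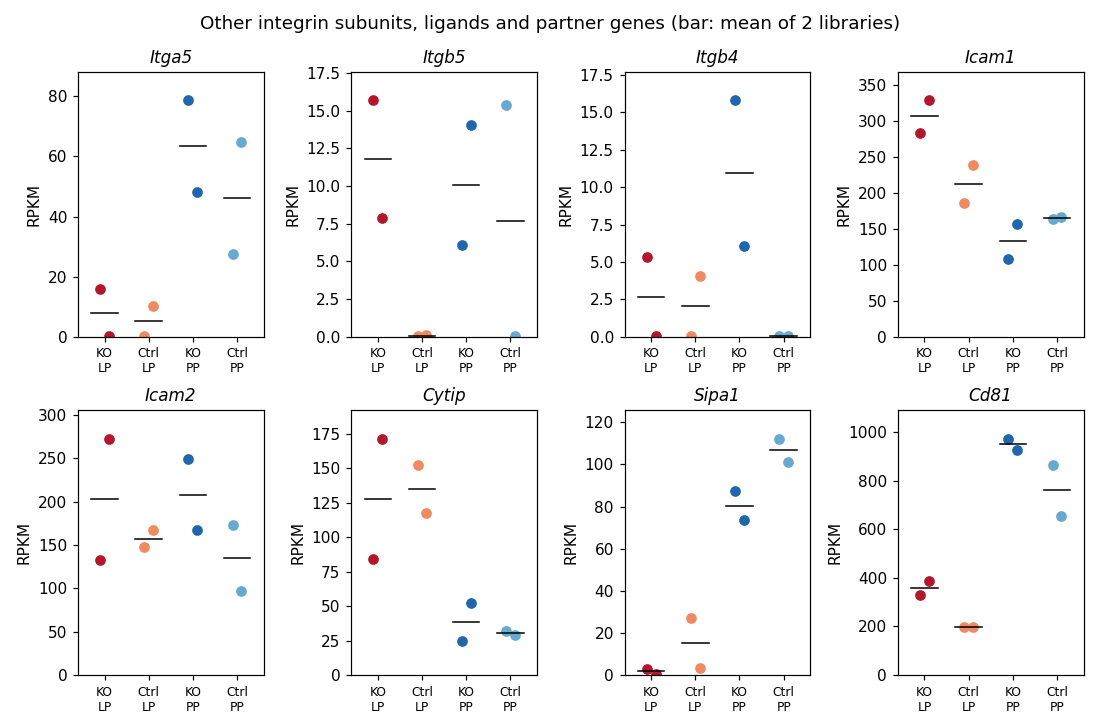
Level in RPKM (linear axes from 0) of 8 other adhesion genes in the 4 groups, with a point per library and a bar at the mean of 2. Cd81 and Sipa1 are lower in every LP library than in every PP library, Cytip and Icam1 are higher, and Itgb5 and Itgb4 have replicates of 1 group far apart.

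The genes whose levels followed each member most closely over the 8 libraries were found by the root-mean-square difference of log2(RPKM + 1) centred on each gene's mean, among 7707 genes. For Itgb7 they were Tmem258 (0.182) and H2aj (0.215), while the spread of Itgb7 about its own mean was 0.695. For Itga4 they were Tent2 (0.176) and Dctn3 (0.3002), and for Itgal Gm6444 (0.183) and Wls (0.204). For Itgb3 they were Sdc4 (0.124) and Psmb4 (0.161). The nearest genes of the other 3 members were farther: Traf1 (0.441) and Stx11 (0.527) for Itgav, Fbxo7 (0.426) and Fis1 (0.494) for Itgb2, and Cant1 (0.500) and Fbxo38 (0.556) for Itgb1. Traf1 stood at 592 and 578 RPKM in LP labelled Tcf7-KO, 554 and 520 in Ctrl LP, 27.0 and 79.9 in PP labelled Tcf7-KO, and 245 and 12.5 in Ctrl PP, so it was high in LP and varied among PP replicates in the order seen for Itgav. With so many genes and 8 libraries of like depth and 1 lane label, close patterns are a description and carry no test.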

How the data were processed

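The 8 RNA libraries of sorted LTi cells fall into 4 groups of 2; per the labels' protocols, the miRNeasy Micro kit gave total RNA and Smart-seq2 the libraries. Reads were assigned to genes with featureCounts of Subread on mm10, per the submitters' processing notes. The sources used here name no versions, aligner or strand setting. The authors deposited log2(RPKM + 1) per gene, with 0.0001 in place of 0, which was read as 0. The base of the logarithm was checked on genes of few reads: 68.3% of 164 values were whole reads within 0.15 after undoing log2, against 23.5 to 31.6% under other bases. Of 27179 identifiers, 25275 matched the RefSeq table of GRCm38.p6.

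The depth was estimated from 75 genes of 1 read each (quartiles 36.8 and 40.5 M reads), and no counts were available for intervals. The 10541 genes that reached 1 RPKM in 2 or more libraries were fitted with limma 3.58.1 in R 4.3.3 (eBayes with a trend, pseudocount 1, two-sided, Benjamini-Hochberg adjusted p). Contrasts within a tissue or genotype used 4 group means (4 residual degrees of freedom before moderation) and the average effects an additive model (5). The fit was tested on simulated data. Tables were made with Python 3.11.15.

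Members were given a fold change where they passed or where groups did not overlap at an absolute log2 fold change of at least 1. From each list the passing genes were named, or else the 3 with the highest mean. The genotype values of Itgb7, the LP and average genotype values of Itga4, some other non-passing values of members (Itgav and Itgb3), and those of Itga5, Itga6 and Icam1 were added after they were seen. The members and lists were chosen with earlier results of these data known. Alternatives were the pseudocount, the filter, 2 rescalings, the trend, the replicate block, only the groups compared and leaving out each library. Promoter windows came from RefSeq. An item withheld here is not reported.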

Additional observations from a re-analysis of the deposited data

Results flagged for a closer look

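The genotype effect of Itgb1 had opposite directions in the tissues, without overlap of the groups in either. On the log2 scale, the LP effect exceeded the PP effect by 3.58 ± 1.71. Both LP libraries labelled Tcf7-KO (9.16 and 28.5 RPKM) lay above both Ctrl LP libraries (7.56 and 1.81 RPKM), and both PP libraries labelled Tcf7-KO (16.9 and 2.67 RPKM) lay below both Ctrl PP libraries (37.9 and 18.6 RPKM). The difference was tested as an interaction and did not pass (limma adjusted p = 0.636), and over 16 alternatives it lay between 2.44 and 4.73.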

How the results depend on the processing

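The count of members that passed for the average tissue effect was 1, and it was 2 with a pseudocount of 5, with a filter on the mean over 8 libraries and with the total without immunoglobulin and mitochondrial genes, 0 after median-of-ratios rescaling and 0 without a trend. The count also changed when single libraries were left out, and in at least 1 of these fits it included a member other than Itgb7 and Itgav. Without Ctrl PP replicate 1 the count of 1 was Itgav and not Itgb7. For the other 6 comparisons the count was 0 under every alternative run. The interaction of Itgb7, 0.12, changed sign to -0.0055 with the total without immunoglobulin and mitochondrial genes, and ranged from -0.038 to 0.29 with single libraries left out (-0.038 without Ctrl PP replicate 1 and -0.016 without Ctrl LP replicate 2). The cause was not tested. The median over all genes was 0.18 after median-of-ratios rescaling and -0.39 as deposited for the interaction, 0.01 and -0.29 for tissue in libraries labelled Tcf7-KO, and -0.07 and 0.16 for genotype in PP.

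The labels do not state that libraries with the same replicate number belong together, so the numbers were not taken as pairs. Such libraries did not deviate together (r between -0.02 and 0.01 over genes), which cannot show whether they came from the same mice. With the replicate number as a block, the count of members passing for the average tissue effect was 1 and the adjusted p of Itgb7 in limma was 0.0466. The block also ended the calls of Cd81 for tissue in libraries labelled Tcf7-KO (0.0825) and of Cytip (0.0501), and no other call named.

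With 2 libraries in a group, the median standard error of a log2 fold change was 1.24 over all genes. It was 0.97 for the average effects. A change had to be several times its standard error to pass: the average tissue effect of Itgav, 3.57 ± 0.89, did not. Changes of the size of a standard error could therefore not be told from the spread, nor could some much larger ones. The lone library left in a group was assumed to vary like the others.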
